A study of Mus musculus with 12 samples.

Results

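The genes described here are 10 that code for enzymes of sphingolipid metabolism in mouse adipose tissue: Sptlc1 and Sptlc2, the ceramide synthases Cers2, Cers4, Cers5 and Cers6, and Degs1, Asah1, Smpd1 and Ugcg. They are 10 of 18193 genes named on the arrays, and all 10 were among the 13312 genes whose signal passed the filter on dim probe sets. The genes were listed by name, at a point when earlier results of these data were known. Cers4 in particular was picked because its signal was higher after 5 days of high-fat diet and near chow again after 14 days. The values of Cers4 are therefore given as a description with no test. The other 9 genes were compared between groups with limma, a linear model with a moderated spread that was fitted to the whole table.

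C57Bl/6 mice, kept in groups, were raised on chow that supplied 13% of calories as fat. At 6 weeks of age some were switched to a high-fat diet (HFD) that supplied 46% of calories as fat. The 3 groups are 5 days of HFD, 14 days of HFD, and chow throughout, with 4 arrays each. The design sets chow as the control of an HFD time course, under a series title on insulin resistance. The labels name no fat depot and no age at which tissue was taken from the chow mice, so diet and age cannot be told apart. They call the arrays of a group replicates without saying that each came from a separate animal, so p-values measure the spread between these samples, which may be technical.

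Ceramide is the hub of sphingolipid metabolism. Serine palmitoyltransferase, whose catalytic core pairs the products of Sptlc1 and Sptlc2, joins serine to palmitoyl-CoA in the endoplasmic reticulum. Ceramide synthases then add a fatty acid, each with its own preference for chain length, and the desaturase encoded by Degs1 turns the resulting dihydroceramide into ceramide. Ceramide is also released from sphingomyelin in the lysosome by acid sphingomyelinase (Smpd1), split there into sphingosine and fatty acid by acid ceramidase (Asah1), and turned into glucosylceramide in the Golgi by the product of Ugcg. In adipose tissue and other insulin targets, ceramides are known for their ability to dampen insulin signalling through Akt.

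Promoter windows are shown for 3 genes on which the results below turn: Cers4, the gene picked for its time course, Cers5, the tested gene that lay wholly above chow after 5 days, and Sptlc1, which lay wholly below chow at both times. Each window runs from 250 bases before to 50 bases after the annotated start of the gene in RefSeq (GRCm38.p6). The windows are chr8:4493155-4493454 on the plus strand for Cers4, chr15:99772466-99772765 on the minus strand for Cers5 and chr13:53377312-53377611 on the minus strand for Sptlc1. Letters run 5′ to 3′ along the gene's strand, and capitals mark matches, on either strand, to the GC box (GGGCGG, read as CCGCCC on the other strand), the CCAAT box (CCAAT or ATTGG) or the E-box (CACGTG).
Cers4: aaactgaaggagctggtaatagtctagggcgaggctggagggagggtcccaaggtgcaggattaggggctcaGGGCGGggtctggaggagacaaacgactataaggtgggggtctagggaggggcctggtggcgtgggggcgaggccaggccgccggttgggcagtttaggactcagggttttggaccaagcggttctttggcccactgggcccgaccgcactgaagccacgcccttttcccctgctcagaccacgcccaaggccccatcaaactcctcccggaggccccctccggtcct
Cers5: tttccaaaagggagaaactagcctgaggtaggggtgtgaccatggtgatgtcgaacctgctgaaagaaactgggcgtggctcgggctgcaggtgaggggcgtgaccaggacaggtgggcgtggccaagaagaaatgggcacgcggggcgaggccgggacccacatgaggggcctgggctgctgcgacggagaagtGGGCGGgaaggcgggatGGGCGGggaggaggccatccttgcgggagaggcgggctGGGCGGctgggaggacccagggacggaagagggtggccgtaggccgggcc
Sptlc1: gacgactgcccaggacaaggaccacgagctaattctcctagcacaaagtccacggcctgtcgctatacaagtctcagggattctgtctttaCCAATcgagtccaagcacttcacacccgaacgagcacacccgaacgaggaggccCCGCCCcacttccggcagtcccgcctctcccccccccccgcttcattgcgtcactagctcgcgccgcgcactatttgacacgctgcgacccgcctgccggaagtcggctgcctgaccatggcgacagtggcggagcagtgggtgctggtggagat

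The Cers4 window held 1 GC box, the Cers5 window 3, and the Sptlc1 window 1 GC box and 1 CCAAT box. RefSeq windows were matched for 9 of the 10 genes, Asah1 being the exception, and Cers2 had 2 windows. Of these 10 windows, 7 held a GC box, against 35.7% of the 32851 windows in the table, 5 held a CCAAT box, against 37.4%, and 3 held an E-box (Cers2, Cers6 and Degs1), against 7.15%. The 10 windows had a GC content between 54.3% and 81.3%, while the median over all windows was 52.7%. These matches are letters in a window and do not show that a factor binds there.

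The arrays were single-colour Affymetrix arrays with 45098 probe sets, groups of short probes that are read as 1 value. Signals were log2 values between 4.18 and 15.50, array medians lay between 8.09 and 8.14, and pairs of arrays correlated at 0.956 to 0.997 over all probe sets. The adipocyte hormone gene Adipoq, which checks the labelled tissue, stood between 14.90 and 15.05 on all 12 arrays. Arrays differed widely in marker genes of other tissues, whose source in the samples was not tested. The epididymis gene Spink8 stood at 14.28, 14.34 and 14.45 on 5-day arrays 1 to 3 and at 14.96 on 14-day array 4, and between 6.85 and 8.87 on the other 8 arrays. The mean over the 5 epididymis markers on the arrays, of a list of 8, ran between 7.09 and 10.72 in the 5-day group, 7.16 and 11.62 in the 14-day group and 7.12 and 8.13 in chow. The markers Lcn8 and Gpx5 of that list stayed between 6.45 and 7.11 and between 7.82 and 8.52 on all arrays. The mean over 8 skeletal muscle markers was 11.95 on 5-day array 2 and 12.27 on chow array 3, and at most 9.07 elsewhere. On 14-day array 4 the mean over the 8 measured of 10 adipocyte markers was 13.44, against 13.80 to 14.00 on the other 11. In such bulk samples, fewer cells of a type and less RNA per cell cannot be told apart.

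Cers4 codes for a ceramide synthase that makes long-chain ceramides. In its brightest probe set (1417780_at) the signal was 11.14, 11.13, 11.24 and 11.44 on the 4 arrays of the 5-day group. It was 10.80, 10.73, 10.98 and 10.70 after 14 days. In chow it was 10.91, 10.75, 10.64 and 10.66. Every 5-day array lay above every 14-day and every chow array, while the 14-day and chow arrays overlapped. The group means were 11.24 ± 0.15 after 5 days, 10.80 ± 0.13 after 14 days and 10.74 ± 0.12 in chow (log2, SD, n = 4). The 5-day group thus stood 0.50 log2 units above chow, a ratio of 1.41, and the 14-day group 0.06 above chow and at a difference of −0.43 against the 5-day group.

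The other 2 probe sets of Cers4 report the same transcripts, so they repeat the measurement on the same samples. Probe set 1417781_at read 10.29, 10.35, 10.34 and 10.50 after 5 days. It read 10.04, 10.06, 10.04 and 10.11 after 14 days and 10.14, 9.98, 9.89 and 9.95 in chow. Here too the 5-day arrays lay above all others, with differences of 0.38 against chow at 5 days, 0.07 against chow at 14 days and −0.31 between 14 and 5 days. Probe set 1417782_at read 8.57, 8.41, 8.59 and 8.70 after 5 days. It read 8.18, 8.20, 8.52 and 8.23 after 14 days and 8.19, 8.001, 7.80 and 8.03 in chow. At this dimmest probe set the 5-day arrays lay above all chow arrays but overlapped with the 14-day group through 14-day array 3. Its difference from chow was 0.56 at 5 days and 0.28 at 14 days, so the 14-day group stood between the other groups there and not beside chow.

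**Figure D1:**
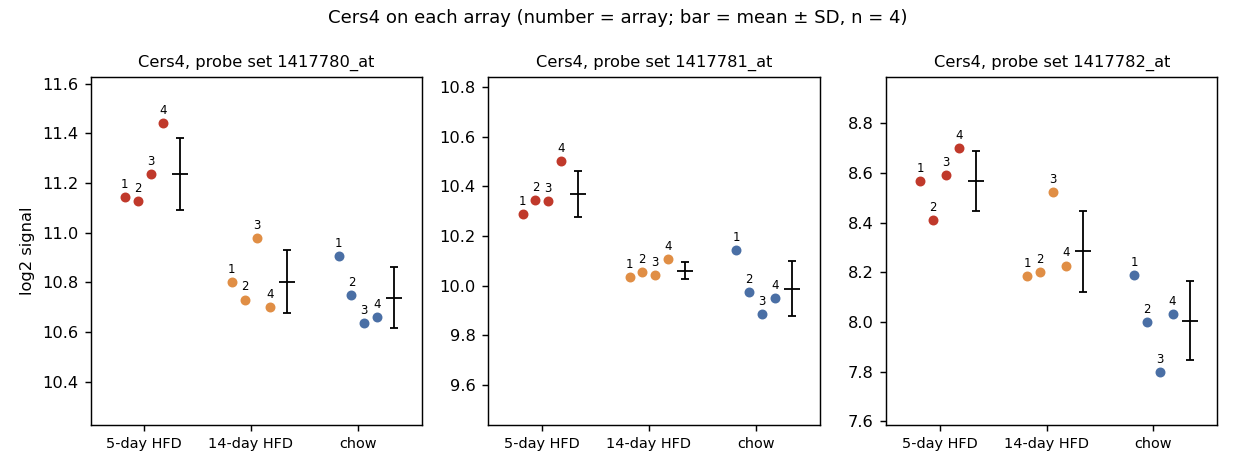
Log2 signal of the 3 probe sets of Cers4 on each array (numbered points), by group on the horizontal axis. Bars give the mean and SD of 4 arrays. The 5-day points lie above all chow points in every panel, while 14-day array 3 reaches the 5-day range in the panel of 1417782_at.

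Leaving out single arrays moved the 5-day difference of Cers4 from chow between 0.43 and 0.55, the 14-day difference from chow between 0.0059 and 0.12, and the difference of the 14-day from the 5-day group between −0.49 and −0.37. Cers4 was picked for its pattern in these same values, so neither these ranges nor the refits below test it. The highest 5-day signal, 11.44, came from 5-day array 4, on which Spink8 stood at 7.20. That array also had the highest endothelium (11.07) and liver (13.52) marker means of all arrays. On 14-day array 4, where Spink8 stood at 14.96, Cers4 read 10.70. Without the 4 arrays on which Spink8 exceeded 11, which leaves 1 array in the 5-day group, the 5-day difference was 0.70, and with the mean of the epididymis markers as a covariate it was 0.61. The part of epididymal or other tissue in the Cers4 signal was not tested.

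Over the 12 arrays, each gene set to its own mean, the profile nearest to that of Cers4 among the other 13311 genes belonged to Dll4, a Notch ligand of endothelial tip cells, with a root mean square difference of 0.124 log2 units. Next came Col4a1, a chain of basement membrane collagen, at 0.126, and Cdk1, the kinase that drives entry into mitosis, at 0.132. The other 2 of the 5 nearest were 1110065P20Rik and Apobr, both at 0.139. The median over all genes was 0.281. Dll4 averaged 8.94 ± 0.29 after 5 days, 8.48 ± 0.16 after 14 days and 8.57 ± 0.10 in chow, and Col4a1 14.08 ± 0.22, 13.84 ± 0.19 and 13.74 ± 0.08 in the same order (SD, n = 4). Cdk1 averaged 8.81 ± 0.19, 8.42 ± 0.21 and 8.31 ± 0.08. For 1110065P20Rik the means were 10.585 ± 0.10, 10.40 ± 0.18 and 10.27 ± 0.07, and for Apobr 8.52 ± 0.11, 8.31 ± 0.20 and 8.08 ± 0.08. After 14 days the means of 1110065P20Rik and Apobr thus stood between those of the other groups and not beside chow. These 5 genes were picked for their likeness, so their levels describe these arrays and carry no test.

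The first comparison asks what 5 days of HFD altered against chow. None of the 9 tested genes passed limma's test at adjusted p under 0.05, and neither did any other gene (0% of 13312 tested), with a lowest adjusted p of 0.248 in the whole table. Of the 9 genes, 1 had all 5-day arrays above all chow arrays (Cers5) and 2 had all of them below (Sptlc1 and Asah1). Of all genes, 6.49% were separated upward and 4.77% downward, 11.3% in either direction. Cers5 and Sptlc1 also had an unadjusted p under 0.05, as did 10.1% of all genes. The median difference over the 9 genes was −0.017, against −0.0015 over all genes.

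After 14 days against chow, again 0 of the 9 genes passed (0% of all genes), and the lowest adjusted p of any gene was 0.362. Sptlc1 alone of the 9 had groups that did not overlap, downward, as 2.26% of all genes did, and 4.63% in either direction. Sptlc1 and Ugcg had an unadjusted p under 0.05, as did 7.97% of all genes. Between 14 and 5 days, 0 of the 9 genes passed (0% of all genes), 0 were separated (0.924% of all genes) and 0 had an unadjusted p under 0.05 (2.55%). The median over the 9 genes was −0.063 at 14 days against chow, with 0.016 over all genes, and −0.057 at 14 against 5 days, with 0.012 over all genes. Both comparisons with chow use the same 4 chow arrays. Calls appeared when limma weighted each array by its agreement with its group: 2 of the 9 genes at 5 days, 6 at 14 days and 3 at 14 against 5 days, in fits that called 15.1%, 22.4% and 16.6% of all genes.

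**Figure D2:**
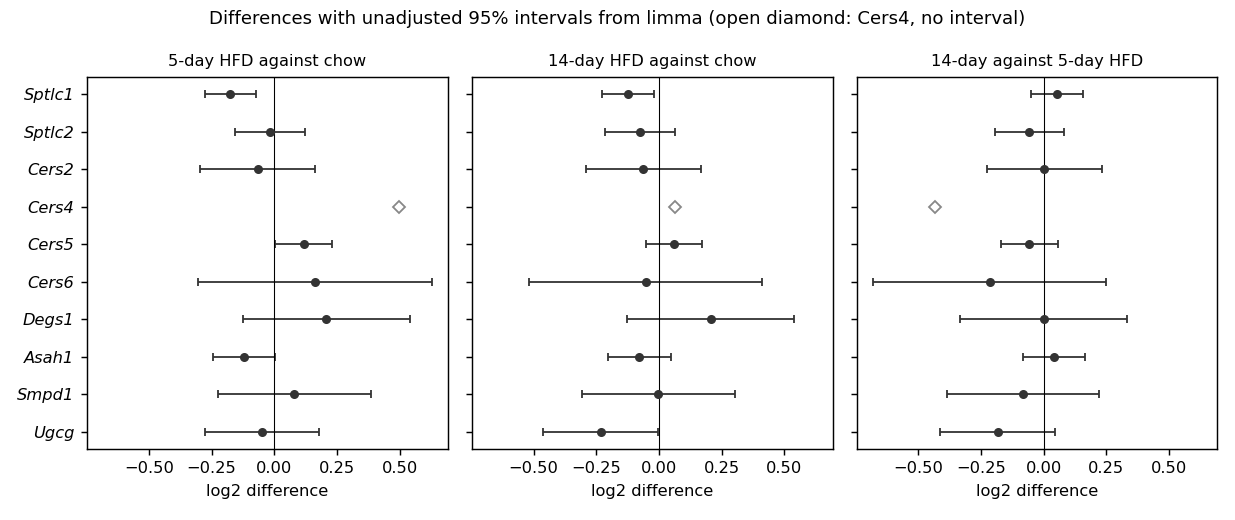
Log2 differences of the 10 genes in the 3 comparisons, with unadjusted 95% intervals from limma. Cers4 is shown as an open diamond without an interval. The interval of Sptlc1 lies below 0 against chow at both times, that of Cers5 lies above 0 at 5 days and that of Ugcg below 0 at 14 days.

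Sptlc1 and Sptlc2 code for the subunits that start the pathway. Sptlc1 (1422690_at) read 10.89, 10.88, 10.83 and 10.76 after 5 days. It read 10.91, 10.87, 10.92 and 10.87 after 14 days and 10.98, 11.06, 11.02 and 11.001 in chow. All 8 HFD arrays lay below all 4 chow arrays, while the HFD groups overlapped with each other. The mean over 6 mast cell markers was split in the same way, at 8.36 to 8.64 after 5 days, 8.27 to 8.56 after 14 days and 8.67 to 8.90 in chow. Of the single markers Cma1 alone was split so, while Cpa3, Mcpt4, Tpsb2, Hdc and Kit overlapped with chow. Cpa3 had its highest signal, 8.84, on 5-day array 1. Mesothelium and lymphocyte marker means lay below all chow arrays on all 5-day arrays, and fibroblast marker means did on all 14-day arrays. The lymphocyte gap was narrow, with the highest 5-day mean at 7.7345 and the lowest chow mean at 7.7377. Only 3 of the 6 lymphocyte markers on the arrays passed the filter on dim probe sets. The part of these cells in the Sptlc1 signal was not tested. The difference from chow was −0.17 ± 0.05 at 5 days (SE, 95% interval −0.28 to −0.07, limma adjusted p = 0.347) and −0.12 ± 0.05 at 14 days (interval −0.23 to −0.02, adjusted p = 0.58). Neither passed after adjustment, and the 14-day group differed from the 5-day group by 0.05 (adjusted p = 0.999).

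The other 3 probe sets of Sptlc1 leaned the same way. Their differences from chow were −0.10, −0.24 and −0.22 at 5 days and −0.07, −0.15 and −0.06 at 14 days, for 1422691_at, 1436726_s_at and 1436727_x_at in this order. Only 1436727_x_at was separated from chow at 5 days, and none of the 3 was at 14 days. As single arrays were left out, the brightest probe set differed from chow by −0.19 to −0.15 at 5 days and by −0.13 to −0.11 at 14 days.

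Sptlc2 (1460243_at) read 10.12, 9.93, 10.12 and 10.15 after 5 days. It read 10.02, 10.10, 10.04 and 9.94 after 14 days and 10.03, 10.07, 10.17 and 10.12 in chow. All 3 groups overlapped. The differences from chow were −0.02 ± 0.06 at 5 days (95% interval −0.16 to 0.12, adjusted p = 0.947) and −0.07 ± 0.06 at 14 days (−0.21 to 0.06, adjusted p = 0.805), and that of 14 against 5 days was −0.06 (adjusted p = 0.999). Probe set 1435937_at differed from chow by −0.09 and −0.20 at 5 and 14 days, and 1454257_at by −0.07 and 0.0053.

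Cers5 and Cers6 code for the synthases that prefer palmitoyl-CoA. Cers5 (1451209_at) read 11.94, 11.87, 11.92 and 11.99 after 5 days. It read 11.94, 11.78, 11.93 and 11.85 after 14 days and 11.84, 11.80, 11.77 and 11.85 in chow. The 5-day arrays all lay above the chow arrays, the lowest at 11.87 against the highest chow array at 11.85, and the 14-day arrays overlapped with both. The 5-day difference was 0.12 ± 0.05 (95% interval 0.0047 to 0.23, limma adjusted p = 0.483) and the 14-day difference 0.06 ± 0.05 (adjusted p = 0.805). Neither passed after adjustment, and 14 against 5 days gave −0.06 ± 0.05 (adjusted p = 0.999). The second probe set of Cers5, 1447308_at, averaged 6.16, under the filter of 7.64, and is not read further.

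Cers6 (1434418_at, its only probe set) read 10.04, 9.92, 10.32 and 9.98 after 5 days. It read 9.53, 9.78, 9.46 and 10.62 after 14 days and 9.85, 9.94, 9.81 and 10.001 in chow. The 5-day arrays overlapped with chow, and 3 of the 14-day arrays lay below all chow arrays while 14-day array 4 lay above every other array. The differences from chow were 0.16 ± 0.21 at 5 days (95% interval −0.30 to 0.63, adjusted p = 0.842) and −0.05 ± 0.21 at 14 days (−0.52 to 0.41, adjusted p = 0.961), and that of 14 against 5 days −0.22 ± 0.21 (adjusted p = 0.999). Without 14-day array 4 the 14-day group differed by −0.31 from chow (adjusted p = 0.482) and by −0.47 from the 5-day group (adjusted p = 0.244). That array also had the highest mean of all 12 for smooth muscle markers (13.71) and for epididymis markers (11.62), whose part in its Cers6 signal was not tested. Cers6 had the widest spread of the 10 genes over the 12 arrays, with an SD larger than that of 87.5% of genes.

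Cers2 codes for the synthase of very-long-chain ceramides. Its only probe set (1423955_a_at) read 11.92, 11.88, 11.95 and 12.26 after 5 days. It read 12.16, 12.03, 12.11 and 11.72 after 14 days and 12.03, 12.05, 12.12 and 12.07 in chow. The 4 low values, 5-day arrays 1 to 3 and 14-day array 4, came from the arrays on which Spink8 exceeded 11, and the other 8 arrays all lay higher, between 12.03 and 12.26. Of all genes past the filter, 4.4% likewise stood lower on all 4 of these arrays, so the split is not particular to Cers2. The differences from chow were −0.07 ± 0.10 at 5 days (95% interval −0.29 to 0.16, limma adjusted p = 0.869) and −0.06 ± 0.10 at 14 days (−0.29 to 0.17, adjusted p = 0.899), and 14 against 5 days gave 0.0025 ± 0.10 (adjusted p = 0.999). Without those 4 arrays, the differences from chow had the opposite sign, 0.19 at 5 days, with 1 array left, and 0.03 at 14 days, with 3 left.

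**Figure D3:**
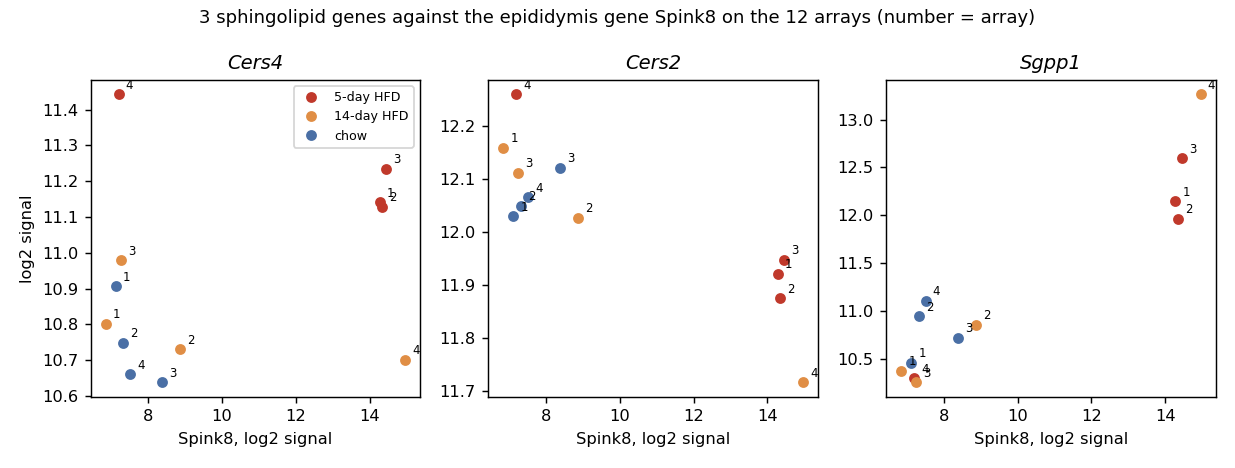
Log2 signal of Cers4, Cers2 and Sgpp1, a sphingosine 1-phosphate phosphatase, against that of the epididymis gene Spink8 on the 12 arrays (points numbered by array, coloured by group). The 4 arrays with Spink8 above 11 hold the 4 lowest Cers2 and the 4 highest Sgpp1 signals, while Cers4 is high on 5-day array 4, where Spink8 is at 7.20, and low on 14-day array 4, where it is at 14.96. Of all genes past the filter, 4.4% are lowest and 4.94% highest on those 4 arrays.

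Degs1 codes for the dihydroceramide desaturase. Its brightest probe set (1423346_at) read 12.77, 12.65, 12.52 and 12.88 after 5 days. It read 12.92, 12.59, 13.06 and 12.25 after 14 days and 12.54, 12.49, 12.39 and 12.57 in chow. In each HFD group 3 of 4 arrays lay above all chow arrays, the exceptions being 5-day array 3 and 14-day array 4, which had the lowest signal of all. Both groups differed from chow by 0.21 ± 0.15 (95% interval −0.13 to 0.54, limma adjusted p = 0.681 at 5 days and 0.772 at 14 days) and from each other by 0. The second probe set, 1423345_at, differed from chow by 0.24 at 5 days, where the groups did not overlap, and by 0.13 at 14 days. Without 14-day array 4 the 14-day difference of the brightest probe set was 0.36 (adjusted p = 0.482). With the mean of the epididymis markers as a covariate the 5-day difference was 0.46 and passed (adjusted p = 0.044), in a fit that called 3.43% of all genes.

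Asah1 codes for acid ceramidase, which breaks ceramide down. Its only probe set (1416735_at) read 11.96, 11.95, 11.82 and 11.97 after 5 days. It read 11.97, 12.08, 11.95 and 11.87 after 14 days and 12.09, 12.07, 12.02 and 12.01 in chow. All 5-day arrays lay below all chow arrays, 5-day array 3 farthest, and the 14-day arrays overlapped with both groups. The difference from chow was −0.12 ± 0.06 at 5 days (95% interval −0.24 to 0.0048, limma adjusted p = 0.514) and −0.08 ± 0.06 at 14 days (−0.20 to 0.05, adjusted p = 0.772). The 14-day group differed from the 5-day group by 0.04 ± 0.06 (adjusted p = 0.999).

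Smpd1 codes for acid sphingomyelinase. Its brightest probe set (1448621_a_at) read 12.00, 11.94, 11.98 and 12.20 after 5 days. It read 12.21, 11.90, 12.20 and 11.48 after 14 days and 11.93, 11.95, 11.93 and 11.98 in chow. The 14-day arrays reached above and below the whole chow range, and all groups overlapped. The differences from chow were 0.08 ± 0.14 at 5 days (95% interval −0.22 to 0.39, adjusted p = 0.88) and −0.0025 ± 0.14 at 14 days (−0.31 to 0.30, adjusted p = 0.997), and 14 against 5 days gave −0.08 ± 0.14 (adjusted p = 0.999). Without 14-day array 4 the 14-day difference from chow was 0.15. Probe set 1447874_x_at differed from chow by 0.13 at both times. Degs1 and Smpd1 had their 3 highest signals on 5-day array 4 and 14-day arrays 1 and 3 and their lowest on 14-day array 4, where the adipocyte marker mean was 13.96, 13.99, 14.00 and 13.44 in this order. Chow array 1, with a mean of 13.96 as well, had Degs1 at 12.54 and Smpd1 at 11.93. The adipocyte mean was not the only one to stand out on 14-day array 4. Its macrophage mean (10.05) was the lowest of the 12 arrays, as were its mesothelium and fibroblast means. Its epididymis (11.62) and smooth muscle (13.71) means were the highest. The part of adipocyte or other RNA in these signals was not tested.

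Ugcg codes for glucosylceramide synthase, which leads ceramide into glycosphingolipids. Its brightest probe set (1421268_at) read 9.62, 9.65, 9.47 and 9.34 after 5 days. It read 9.17, 9.56, 9.47 and 9.16 after 14 days and 9.56, 9.60, 9.48 and 9.65 in chow. The 14-day group had 3 arrays below all chow arrays and 1, array 2, within the chow range. The difference from chow was −0.23 ± 0.10 at 14 days (95% interval −0.46 to −0.0042, limma adjusted p = 0.62), which did not pass, and −0.05 ± 0.10 at 5 days (adjusted p = 0.906). The 14-day group differed from the 5-day group by −0.18 ± 0.10 (adjusted p = 0.999). Probe set 1435133_at differed from chow by 0.01 at 5 days and −0.19 at 14 days, and the other 2 probe sets averaged under the filter.

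**Figure D4:**
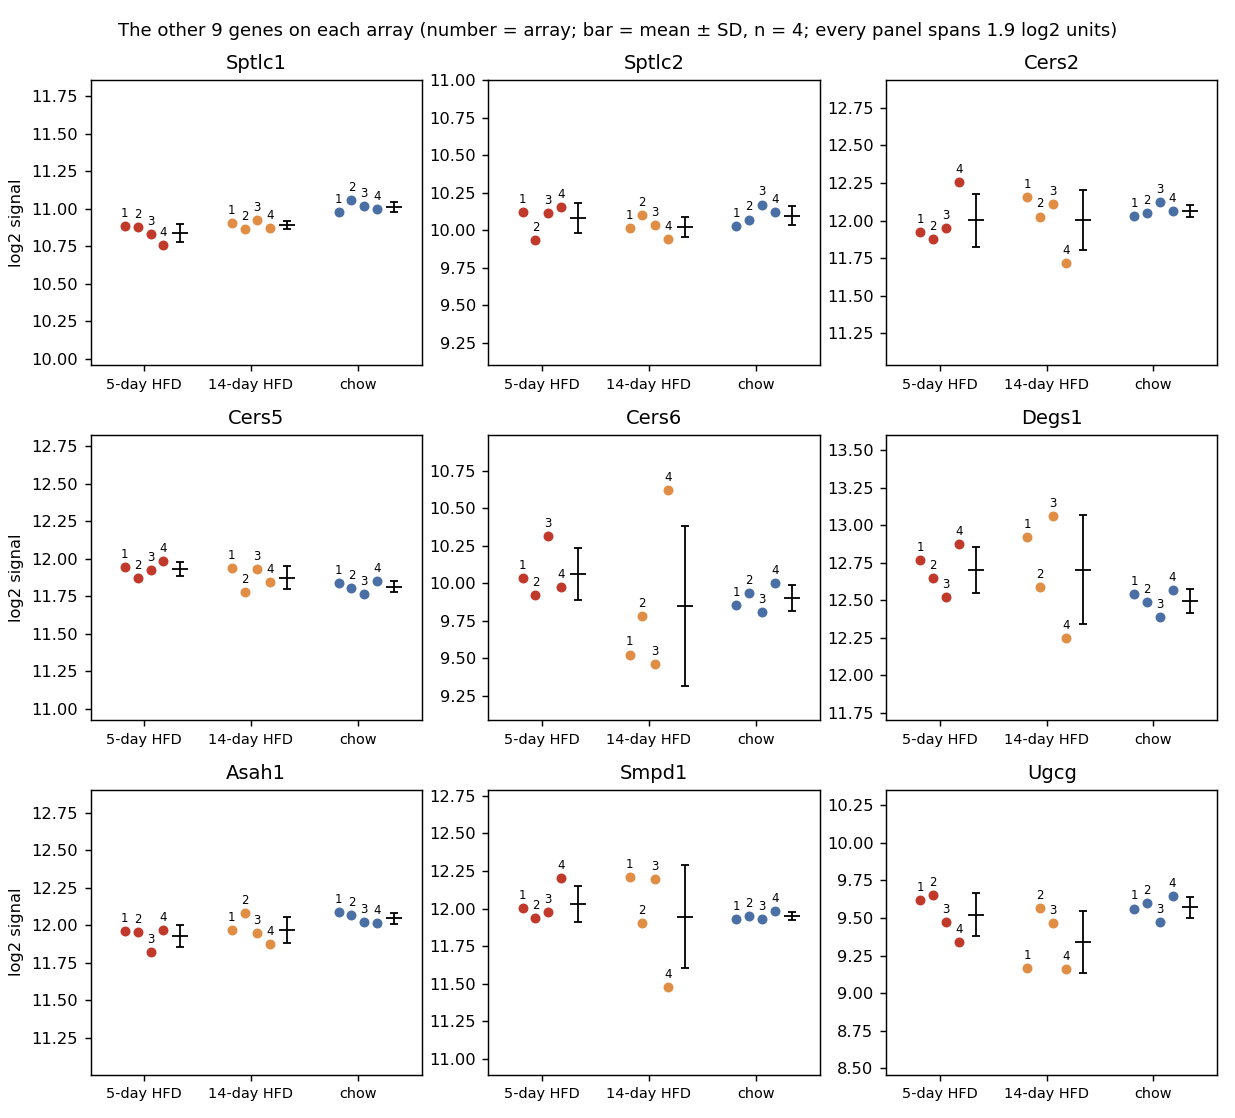
Log2 signal of the 9 tested genes on each array (numbered points), by group on the horizontal axis. Bars give the mean and SD of 4 arrays, and every panel spans the same 1.9 log2 units. Sptlc1 lies lower on all 8 HFD arrays than on the 4 chow arrays, while 14-day array 4 is the highest of its group in Cers6. That array is the lowest of its group in Degs1, Smpd1, Cers2, Sptlc2 and Asah1 and, by a small margin, in Ugcg.

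The 10 genes differed in how much they varied. The SD over the 12 arrays exceeded that of 87.5% of genes for Cers6, 82.3% for Cers4, 78.5% for Degs1 and 70.2% for Smpd1, but of only 6.96% for Cers5, 10.1% for Sptlc2, 11.5% for Asah1 and 14.6% for Sptlc1. The arrays of Cers6 ran from 9.46 to 10.62, those of Cers5 from 11.77 to 11.99.

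A wider list of 73 sphingolipid genes, which includes the 10, had 68 genes on the arrays and 59 past the filter. Cers3, Sptlc3 and 7 others stood under the filter. Of the 58 genes past the filter without Cers4, 32 were higher and 26 lower after 5 days than in chow, with a median of 0.03. After 14 days 27 were higher and 31 lower, with a median of −0.01. In the comparison of 14 with 5 days 25 were higher and 32 lower, with a median of −0.02. Limma called 0 of the 58 in each comparison. Groups did not overlap for 8 higher and 7 lower genes at 5 days, for 1 higher and 2 lower at 14 days and for 0 at 14 against 5 days. Over all genes 6.49% were separated upward and 4.77% downward at 5 days, 2.37% and 2.26% at 14 days, and 0.646% and 0.278% at 14 against 5 days. An unadjusted p under 0.05 was reached by 4 higher and 7 lower genes at 5 days, by 6 lower genes at 14 days and by 1 in each direction at 14 against 5 days. The shares of all genes, upward and downward, were 4.43% and 5.67% at 5 days, 3.67% and 4.3% at 14 days, and 1.77% and 0.789% at 14 against 5 days.

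Beyond the 10, the gene of smallest p against chow was the same at both times. This was Sgpl1, the lyase that irreversibly breaks down sphingosine 1-phosphate. It read 11.27, 11.18, 11.32 and 11.36 after 5 days, then 11.25, 11.63, 11.39 and 11.09 after 14 days and 11.56, 11.63, 11.61 and 11.63 in chow. The 5-day arrays all lay below chow, and after 14 days array 2 lay within the chow range. The difference was −0.32 ± 0.10 at 5 days (limma adjusted p = 0.347) and −0.27 ± 0.10 at 14 days (adjusted p = 0.58). Sgpl1 was called at 5 days in a fit of only the 5-day and chow arrays (adjusted p = 0.0311, with 1.6% of all genes called) and with array weights at both times (adjusted p = 0.0031 at 5 days and 0.0090 at 14 days).

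At 5 days against chow the other 3 genes of smallest p were Degs2, a desaturase and hydroxylase that makes phytoceramide (−0.18 ± 0.06, adjusted p = 0.364), Gal3st1, the sulfotransferase that makes sulfatide (−0.18 ± 0.06, adjusted p = 0.371), and Cptp, which carries ceramide 1-phosphate between membranes (0.17 ± 0.06, adjusted p = 0.408). Each of the 3 had groups that did not overlap. At 14 days they were Hexa, a subunit of the lysosomal hexosaminidase that degrades gangliosides (−0.19 ± 0.07, adjusted p = 0.58, groups not overlapping), Plpp3, a lipid phosphate phosphatase (−0.31 ± 0.12, adjusted p = 0.58), and S1pr3, a receptor for sphingosine 1-phosphate (−0.47 ± 0.21, adjusted p = 0.615). At 14 against 5 days they were Gal3st1 (0.15 ± 0.06), Hexa (−0.18 ± 0.07), Gm2a, the activator protein that presents gangliosides to hexosaminidase (−0.20 ± 0.10), and the receptor gene S1pr1 (−0.24 ± 0.14), each with adjusted p = 0.999. None passed.

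**Figure D5:**
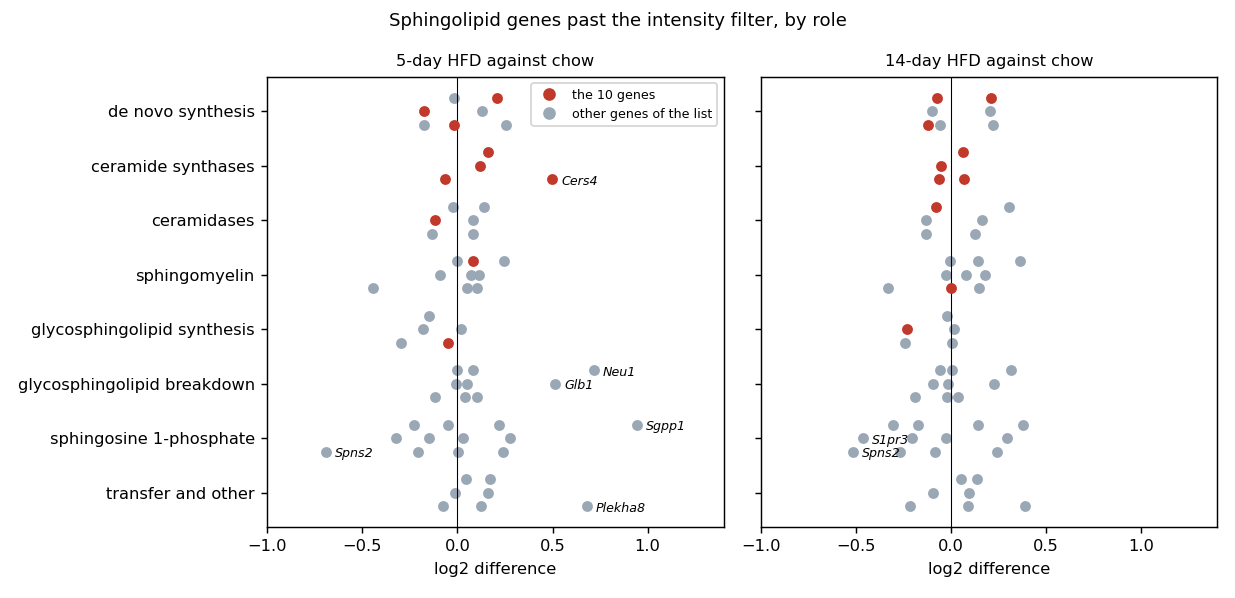
Log2 differences from chow of the 59 sphingolipid genes past the filter at 5 days (left) and 14 days (right), grouped by role. Red points are the 10 genes, Cers4 named, and grey points the others, with the farthest named after their values were seen. Cers4 was picked for a higher signal at 5 days and a return by 14 days. It is the farthest red point at 5 days and sits among the others at 14 days.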

How the data were processed

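RNA of adipose tissue was measured on 12 single-colour Affymetrix arrays, 4 per diet group, grouped by the diets in the labels. The authors deposited 1 table of 45098 probe sets in log2 units, a scale judged from the values. How probes were summarised and normalized is not given in the sources used here, and nothing was renormalized. Arrays hold no counts, so their number limits the precision.

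Probe sets were named from the platform annotation: 34945 carried 1 symbol, 932 several (not used), 9160 none, and 61 were controls. Of these, 34741 were matched to RefSeq (GRCm38.p6) by Entrez ID. Each gene was represented by its brightest probe set over all arrays. Dim genes, with a mean below 7.64 (the 40th percentile over probe sets), were left out, which kept 13312 of 18193. A single fit with limma 3.58.1 (R 4.3.3, eBayes with trend) held all 3 groups, and tests were two-sided, with Benjamini-Hochberg adjustment over all genes tested and a call at adjusted p under 0.05. The fit was tested on simulated data in which the deviations of each gene were shuffled over the arrays separately. Differences that many genes share on an array, such as those in tissue markers, were therefore not covered. Figures and promoter matches used Python 3.11.15, pandas 2.3.3 and matplotlib 3.10.9.

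The genes, the wider list, the tissue markers and the Spink8 and muscle limits of 11 were chosen with earlier results of these data known. Named beyond the 10 were the 4 other sphingolipid genes of smallest p in each comparison, the 5 profiles nearest to Cers4 and the most variable gene of each marker list. Glb1, Neu1, Sgpp1 and the other genes named for their Spink8 split, and further markers, were picked after their values were seen. So were Spns2 and Plekha8, which are named in a figure for their large differences from chow. Alternatives covered array scaling, filters, probe set choice, variance models, array weights, the epididymis covariate and left-out arrays. Replicate numbers gave no sign of pairing: of 12 same-numbered pairs 2 had correlated deviations above 0.1, with a range of −0.73 to 0.41. Differently numbered pairs ranged from −0.58 to 0.71. The wide differences between arrays in other tissues' markers could hide a pairing, so this check cannot exclude one.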

Additional observations from a re-analysis of the deposited data

Results flagged for a closer look

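Asah1 on 5-day array 3, at 11.82 against 11.95 to 11.97 on the other arrays of its group, stood apart: its gap to the nearest array was 0.882 of the group's range, above Dixon's 95% critical value for 4 arrays. It was 1 of 30 groups so tested (10 genes in 3 groups), and chance flags about 1 in 20. Without this array the 5-day difference of Asah1 from chow was −0.08 in place of −0.12.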

How the results depend on the processing

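Apart from Degs1 at 14 against 5 days, which was 0 and has no direction, the 26 differences of the 9 tested genes gave 673 values under the alternatives: 619 kept their direction and stayed uncalled, 43 had the opposite sign (1 of them called), and 11 became calls with an unchanged sign. In 24 of 26 settings none of the 9 genes was called. The cause of the shifts below was not tested. The 4 arrays per group limit the precision.

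Array weights called 2 genes at 5 days (Sptlc1 and Cers5), 6 at 14 days (Sptlc1, Degs1, Cers5, Cers6, Smpd1 and Ugcg) and 3 at 14 against 5 days (Cers2, Cers6 and Ugcg), and 17, 16 and 11 genes of the wider list. They called 2015, 2981 and 2212 genes of the whole table. With the epididymis covariate 1 of the 9 (Degs1) and 3 of the wider list were called at 5 days, 0 and 0 at 14 days, and 0 and 1 (Gm2a) at 14 against 5 days. That fit called 457, 0 and 30 genes in all. At 5 days, a fit of only the 2 groups called 4 of the wider list (Sgpl1, Smpd3, Glb1 and Plpp2) and 213 of all genes, and leaving out the Spink8-high arrays, with the 1 remaining 5-day array assumed to vary like the others, called 1 (Arsa) and 109. Leaving out single arrays gave 0 to 3 calls in the wider list at 5 days, the 3 (Smpd3, Glb1 and Plpp2) without 14-day array 4, where 123 genes of all were called. Without 14-day array 2, 20 of all genes were called at 14 days.

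Signs turned at 5 days against chow for Cers2 with the covariate (0.12) and without Spink8-high arrays (0.19), Cers6 with the covariate (−0.17), and Sptlc2 with the covariate (0.029), without Spink8-high arrays (0.0555) and without the muscle-high arrays, 5-day array 2 and chow array 3 (0.0563). They did for Ugcg with the probe set mean (0.045), array weights (0.0068) and 1435133_at (0.01). At 14 days they turned for Cers2 with weights (0.058), the covariate (0.021) and without Spink8-high arrays (0.033), for Sptlc2 at 1454257_at (0.0053), and for Smpd1 with median centring (0.0125), the probe set mean (0.061), weights (0.22, adjusted p = 0.0281 by limma), the covariate (0.11), without Spink8-high arrays (0.15) and at 1447874_x_at (0.13). At 14 against 5 days they turned for Cers2 with quantile normalization (−0.0072), the covariate (−0.10), and without Spink8-high (−0.16) or muscle-high arrays (−0.039). They also did for Cers5 with the probe set mean (0.0055), Sptlc2 at 1454257_at (0.076), Smpd1 with weights (0.18) and Ugcg without Spink8-high arrays (0.058).

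With single arrays left out, signs turned within these ranges. At 5 days Sptlc2 ran from −0.0415 to 0.0315 and Ugcg from −0.093 to 0.012. At 14 days Cers2 ran from −0.11 to 0.033, Cers6 from −0.31 to 0.076 and Smpd1 from −0.091 to 0.15. At 14 against 5 days Cers2 ran from −0.049 to 0.098 and Smpd1 from −0.17 to 0.074, while Degs1, at 0 with all arrays, ran from −0.12 to 0.15.

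The replicate block, fitted although the numbers gave no sign of pairing, left 0 calls among the 9 genes in each comparison and changed no call.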

Other observations

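The following values were read after the split of arrays by Spink8 was seen, and carry no test. Of the 59 sphingolipid genes past the filter, 6 (10.2%) stood higher on all 4 arrays with Spink8 above 11 than on the other 8, as 4.94% of all genes did, and 3 (5.08%) stood lower on all 4, as 4.4% of all genes did. Those lower were Cers2, the neutral ceramidase gene Asah2 and B4galt5, a lactosylceramide synthase gene. Those higher were Glb1 and Neu1, which code for a lysosomal galactosidase and a sialidase, the sphingosine kinase genes Sphk1 and Sphk2, and the phosphatase genes Sgpp1 and Plpp2. Sgpp1 ran between 11.97 and 13.27 on the 4 arrays and between 10.26 and 11.11 on the other 8. Neu1 ran between 10.36 and 11.13 on the 4 and between 9.28 and 9.87 on the 8, and Glb1 between 10.83 and 11.55 on the 4 and 10.18 and 10.62 on the 8. Of the 4 arrays, 3 belong to the 5-day group, whose differences from chow were 0.94 ± 0.64 for Sgpp1, 0.72 ± 0.35 for Neu1 and 0.51 ± 0.24 for Glb1 (SE). None of these passed limma's test, with adjusted p = 0.649, 0.524 and 0.511 in this order.

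Other marker lists varied within groups, and 4 were also separated from chow: mast cell means lay below all chow arrays on all 8 HFD arrays, mesothelium and lymphocyte means on the 5-day arrays and fibroblast means on the 14-day arrays. The mast cell split was met by Cma1 alone of its 6 markers. The lymphocyte gap was narrow, from 7.7345 to 7.7377, with only 3 of 6 measured markers past the filter. Liver marker means ran between 9.78 and 13.52 in the 5-day group, 9.53 and 13.08 in the 14-day group and 8.66 and 12.38 in chow, with Fga the most variable. Smooth muscle means ran between 9.80 and 12.10, 9.39 and 13.71, and 9.84 and 10.51 in the same order (Actg2). Macrophage means ran between 11.13 and 11.44, 10.05 and 11.32, and 11.30 and 11.57 (C1qa), and mesothelium means between 9.81 and 10.34, 9.53 and 10.66, and 10.55 and 10.84 (Msln). Endothelium means ran between 10.22 and 11.07, 9.92 and 10.69, and 10.21 and 10.54 (Tie1), and were highest on 5-day array 4, the array with the highest Cers4 signal. Fibroblast means ran between 11.36 and 11.84, 10.91 and 11.48, and 11.70 and 11.87 (Lum). Mast cell means ran between 8.36 and 8.64, 8.27 and 8.56, and 8.67 and 8.90 (Hdc), and lymphocyte means between 7.52 and 7.73, 7.53 and 7.96, and 7.74 and 7.84 (Ms4a1). The most variable adipocyte and skeletal muscle markers were Lep and Tnnc2.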
